A study of Schizosaccharomyces pombe with 28 samples.

Results

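The fission yeast Swm1/2 complex joins the products of 4 genes, and these genes were followed here as targets on the arrays. The amine oxidase genes are swm1, with the identifier SPBC146.09c, and swm2, with SPAC23E2.02. The PHD finger genes are swp1, with SPCC4G3.07c, and swp2, with SPAC30D11.08c. Members were all features that carry 1 of these 4 identifiers. This gave 4 of the 4878 open reading frame (ORF) features and 4 of the 4949 inter-genic region (IGR) features kept, 1 of each kind per gene. An IGR feature is a spotted stretch of DNA between genes that the array names after a gene. Its position is not given in the files used here, so it was not placed relative to the gene that names it.

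Swm1 and Swm2 are the fission yeast relatives of mammalian LSD1, a flavin-dependent amine oxidase that takes methyl groups off lysines in the tail of histone H3. Both carry a SWIRM domain and an amine oxidase domain. Swp1 and Swp2 each carry a PHD finger, a small zinc-binding fold found in many chromatin proteins. Dimethylation of H3 on lysine 4 (H3K4me2) is a mark of transcribed chromatin, whereas dimethylation on lysine 9 (H3K9me2) marks heterochromatin in this yeast. Hrp1 and Hrp3 are related CHD-type chromatin remodellers, enzymes that use ATP to move or disassemble nucleosomes.

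H3K4me2 and H3K9me2 were each compared between swm1Δ and wild-type (wt) cells by ChIP-chip, on 2 arrays per mark and region type with the dyes exchanged. In the swm1Δ strain the swm1 ORF had been replaced by a Clonat resistance marker. Binding of Hrp1-myc and Hrp3-myc, the myc-tagged proteins, was measured as immunoprecipitate (IP) against input on 3 arrays per protein and region type. Histone H3 was immunoprecipitated from hrp1Δ cells with an antibody to its C-terminus, also against input and on 3 arrays per region type, with no wt array beside them. Each feature has 2 adjacent spots on an array, and their mean was used as 1 value, so that n counts arrays. By their labels the ORF and IGR features of a methylation array number share a slide, so the ORF and IGR results of a mark come from the same 2 hybridisations and are not independent of each other. The methods describe the methylation arrays as independent ChIP samples. For the Hrp and H3 arrays no source used here says so, and their spread may be technical. By their labels, 1 array in each Hrp1-myc and H3 set carries another code and platform than the other arrays of its set. These are array 1 of Hrp1-myc in ORFs, array 3 of Hrp1-myc in IGRs and array 1 of H3. The labels do not say what the code stands for.

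The arrays did not carry equal information. Between the 2 arrays of a mark, log2 ratios over all features had a Pearson correlation of 0.70 (ORF) and 0.43 (IGR) for H3K4me2, but of 0.059 (ORF) and 0.012 (IGR) for H3K9me2. The share of spots whose Cy3 and Cy5 signals each reached 1.5 times the local background was 99.4% to 99.6% on the H3K4me2 arrays, 84.3% to 94.8% on the H3K9me2 arrays with scanner signals and 71.2% to 99.7% on the Hrp arrays. The labels of the H3K9me2 ORF array 1 (B1) and of its IGR part name opposite dyes. Wt was read as Cy3 in both, and results that turn with this choice are given with both readings. On this ORF array the deposited log2 ratios had a Spearman correlation of -0.802 with log2 Cy3 over Cy5. They thus ran with Cy5 over Cy3, which is swm1Δ over wt when wt is Cy3. In each Hrp set 1 array correlated negatively with the other arrays, at -0.26 to -0.065. On these 4 arrays (array 2 for Hrp1-myc in ORFs, array 1 in the other sets) the values deposited by the authors followed the dye labelled as input. Hrp ratios were therefore read by the labels and again with the dyes of that array exchanged.

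The deleted gene checks the labels of the H3K4me2 arrays, and it stood at their bottom. In ORF features the log2 ratio of swm1Δ over wt at swm1 was -4.04 on array 1 and -3.76 on array 2. This was the lowest value of all ORF features on each array. On array 1 the 2 spots gave 127.5 and 180 units in the swm1Δ dye (Cy3) against 15831.5 and 14036 units in the wt dye (Cy5). On array 2 they gave 1680 and 1661 units in the swm1Δ dye (Cy5) against 4363 and 3809 units in the wt dye (Cy3). The mean was -3.90 ± 0.20 (SD, n = 2 arrays), which is 14.9-fold lower in swm1Δ cells (adjusted p = 1.12e-08 from limma). The size depends on the treatment of low signals, and it was -4.86 in the log2 ratios deposited by the authors. In the IGR feature of swm1 the ratios were -2.38 and -2.29, with a mean of -2.34 ± 0.07 (SD, n = 2 arrays; adjusted p = 7.09e-05). A limma call means an adjusted p under 0.05 over all features of the region type. The arrays also hold an ORF and an IGR feature named lsd1, a name that the gene annotation gives to swm1. They do not carry the identifier of swm1 and were not members. Their H3K4me2 ratios showed no such loss (0.35 and 0.62 in the ORF, 0.31 and 0.09 in the IGR feature). Which locus they probe was not tested.

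The sharp loss was not limited to the features named swm1. The IGR feature named after tif1102, the gene on the low-coordinate side of swm1, had ratios of -3.93 and -3.23, lower than the IGR feature of swm1 itself (mean -3.58, adjusted p = 2e-06). Since swm1 lies on the minus strand, tif1102 lies past its 3' end. The tif1102 ORF was lower by a mean of -0.92 (adjusted p = 0.010). The ORF of mug57, the gene on the other side, was lower by -0.77 (adjusted p = 0.0191) and its IGR feature by -0.98 (adjusted p = 0.0405). All 5 of these features were below 0 on both arrays. Over all features, 12.9% of ORF and 1.41% of IGR features were called lower. The fan1 ORF, farther out on the tif1102 side, was lower than either flanking ORF (mean -1.03, adjusted p = 0.0047 from limma). The IGR feature of mug97, past mug57, was called higher (mean 0.98, adjusted p = 0.0463). The ORF values alone thus do not set the 2 flanking genes apart.

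The gene for the PHD finger protein Swp1 had a higher H3K4me2 signal in swm1Δ cells. This held in its ORF and in its IGR feature on the same slides. No input or H3 array of swm1Δ cells was used. Whether the amount of DNA or of H3 at swp1 differed between the strains was therefore not tested. A gain means a higher signal, here and below. At the swp1 ORF the log2 ratio was 1.69 on array 1 and 1.37 on array 2. Its mean of 1.53 ± 0.23 (SD, n = 2 arrays) is a 2.88-fold higher signal in swm1Δ cells (adjusted p = 0.000416), with a 95% interval of 1.05 to 2.00. At the swp1 IGR feature the ratio was 1.19 on array 1 and 1.65 on array 2. This mean of 1.42 ± 0.33 (SD, n = 2 arrays) is a 2.68-fold higher signal (adjusted p = 0.00340), with an interval of 0.87 to 1.97. All spots pointed the same way. The methods' rule asks for a ratio of 2.0 in at least 3 data points, and the swp1 ORF passed in 4 of 4 spots and the IGR feature in 3 of 3. The median percentile rank of swp1 among all features was 99.0 in ORFs and 98.1 in IGRs.

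At the other 2 genes no H3K4me2 feature was called. The swm2 ORF, which encodes the second amine oxidase, had ratios of -0.55 and -0.15 (mean -0.35, adjusted p = 0.251), and its IGR feature 0.29 and 0.15 (mean 0.22, adjusted p = 0.768). The interval of the swm2 ORF ran from -0.83 to 0.13, which leaves out a change of 2-fold in either direction. The swp2 ORF, for the second PHD finger protein, had ratios of 0.04 and 0.56 (mean 0.30, adjusted p = 0.331), and its IGR feature 0.36 and 0.26 (mean 0.31, adjusted p = 0.652). Its ORF interval was -0.18 to 0.79. Both IGR features and the swm2 ORF lay on 1 side of 0 on both arrays, by means larger than their SD over arrays (0.10 and 0.07 for the swm2 and swp2 IGR features and 0.28 for the swm2 ORF). Thus 1 of the 4 members was called higher and 1, the deleted gene, lower, in each region type. Over all ORF features 28.7% were called, 15.9% higher and 12.9% lower, and over all IGR features 5.27%, 3.86% higher and 1.41% lower. The methods' rule passed 3.3% of ORF and 1.94% of IGR features as higher, and with a ratio of 1/2.0 in its place 2.11% and 0.465% as lower. With a spread shared between the H3K4me2 and H3K9me2 arrays, or with either H3K4me2 array left out, no feature was called, and the adjusted p of the swm1 and swp1 features was 0.895 or more.

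**Figure D1:**
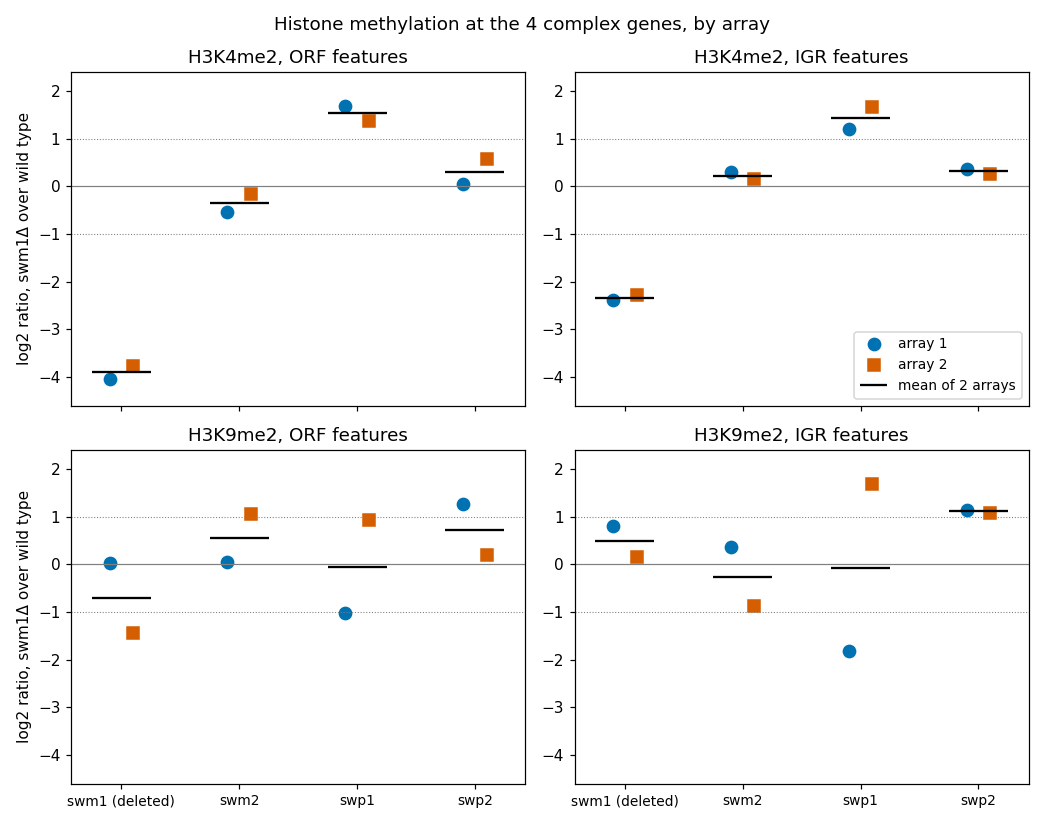
Log2 ratio of swm1Δ over wt (vertical axes) at the 4 genes for H3K4me2 (upper panels) and H3K9me2 (lower panels), in ORF features (left) and IGR features (right). Points are arrays, bars are means of 2 arrays and dotted lines mark ratios of 2.0 and 1/2.0; H3K4me2 at swp1 lies above the upper line on each array, whereas the H3K9me2 points of swp1 fall on opposite sides of 0.

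The DNA just before swm1 and swp1 is shown because both their ORF and IGR features were called. It need not be the DNA spotted as their IGR features. The 200 bases before the annotated transcript start were read 5′ to 3′ on the gene's strand from the RefSeq assembly ASM294v3. The build behind the array design is not given in the sources used here. Capitals mark matches to TATAAA on either strand (read as TTTATA on the other).
swm1 (II:1019242-1019441, minus strand): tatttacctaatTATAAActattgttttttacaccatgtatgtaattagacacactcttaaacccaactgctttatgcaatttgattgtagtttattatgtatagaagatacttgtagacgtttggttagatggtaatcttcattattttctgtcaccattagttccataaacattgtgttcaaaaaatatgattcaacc
swp1 (III:459668-459867, plus strand): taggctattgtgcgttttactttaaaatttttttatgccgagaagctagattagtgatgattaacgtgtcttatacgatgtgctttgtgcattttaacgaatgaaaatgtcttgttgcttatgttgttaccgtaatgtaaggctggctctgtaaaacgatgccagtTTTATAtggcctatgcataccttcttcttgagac

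Each of these windows held 1 match to TATAAA, the windows of swp2 and swm2 held 2 and 0, and 37.0% of 5112 such windows of protein-coding genes held at least 1. CAGTCACA, searched on both strands, was in none of the 4 and in 2.58% of all windows. Neither of the printed windows overlaps an annotated gene. The window of swm2 overlaps a non-coding RNA and so does that of swp2. In the same annotation, which calls them lsd1, lsd2, phf1 and phf2, swm1 lies at II:1015936-1019241 (minus strand) with 1 coding exon of 3003 bases. swm2 lies at I:446770-450726 (plus strand) with 3708 coding bases in 2 exons. swp1 lies at III:459868-461914 (plus strand) with 1386 coding bases in 1 exon, and swp2 at I:1104768-1106608 (plus strand) with 1617 coding bases in 2 exons. The 3' end of swp2 overlaps nth1, a DNA repair enzyme gene, whose ORF had a mean H3K4me2 ratio of -0.22.

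The gain of H3K4me2 at swp1 was shared by the genes around it. Of the 10 protein-coding genes on each side, 19 had an ORF feature, and 16 of these were called higher and 0 lower. All 19 were above 0 on both arrays, with a median of 1.30 on array 1 and 1.28 on array 2, against medians of -0.02 and -0.02 over all ORF features. Of 18 neighbouring IGR features 14 were called higher and 0 lower, with medians of 1.08 and 1.34 against 0.02 and 0.00 over all IGR features. By the methods' rule 10 of the 19 ORF and 5 of the 18 IGR features passed.

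Neighbours exceeded swp1 itself. The ORF of SPCC4G3.12c, the fifth gene on the low-coordinate side, had ratios of 2.78 and 2.13, and that of gyp3, whose name marks it as a GTPase-activating protein, had 1.73 and 2.53. The ORF of psk1, a protein kinase gene next to swp1, had 1.83 and 1.62. On the other side mrpl4, for a mitochondrial ribosomal protein, had 0.78 and 0.85, and mus81, for a subunit of a DNA endonuclease, had 1.51 and 1.28. The value of swp1 thus lay inside the range of its neighbours.

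Where the stretch ends was not settled by the genes examined. The limit was a mean of at least 0.5 in ORF features, chosen after the values were seen. By this limit swp1 stood in a row of 17 genes from not2 to nap1, at III:441536-475661. Of these, 16 had an ORF feature and each reached the limit, while a gene without an ORF feature was passed over. The row holds 9 genes before swp1 and 7 after it. The next gene before it, rib2, had an ORF mean of 0.30 and is the last of the 10 on that side. The next after it, vps3, had an ORF mean of 0.44, but the ORF of coy1 beyond it had 1.76 and 1.74. In IGR features the 3 genes past the row on this side were called higher, with means of 1.48 (vps3), 1.09 (coy1) and 1.36 (rpl1702), so the row is a description of ORF values within the genes examined and not an end of the gain. These features are neighbours on 1 chromosome and are not independent of each other.

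**Figure D2:**
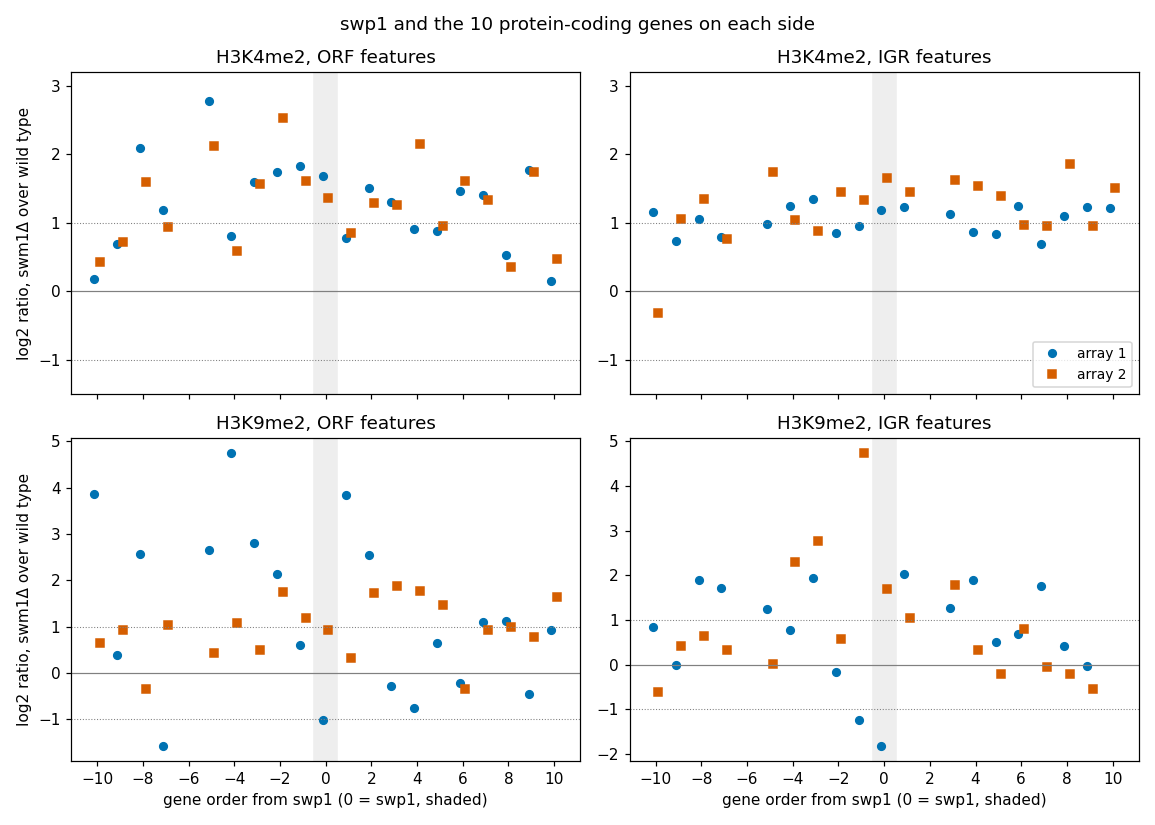
Log2 ratio of swm1Δ over wt (vertical axes) for swp1 (shaded) and the protein-coding genes beside it, placed by gene order (horizontal axes), for H3K4me2 (upper panels) and H3K9me2 (lower panels) in ORF features (left) and IGR features (right). Points are arrays and dotted lines mark ratios of 2.0 and 1/2.0; all ORF points for H3K4me2 lie above 0, and for H3K9me2 the array 1 points of swp1 lie below 0.

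The other 3 genes did not stand in such a stretch. Around swm1, 2 of 20 neighbouring ORF features were called higher and 3 lower for H3K4me2, with medians of 0.05 and -0.00 on the 2 arrays. Around swm2 these counts were 4 and 5, with medians of 0.04 and -0.07, and around swp2 they were 3 and 4, with medians of -0.17 and -0.15. These counts of 20 features each stand against 15.9% called higher and 12.9% called lower over all ORF features, and both directions occurred around each gene. The ORF of fep1, an iron-regulated transcription factor gene beside swm2, was called higher (0.90 and 0.73, adjusted p = 0.0127), and the ORF of ste7 on its other side was not (0.93 and -0.02, adjusted p = 0.173).

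For H3K9me2 the limma test called 0 of 4878 ORF and 0 of 4887 IGR features, so that the background is 0%. An unadjusted p under 0.05 was found for 206 and 268 features, close to what such a cut passes where nothing changes. No member was called, with adjusted p between 0.957 and 0.998, and the arrays opposed each other at several members. The swm1 ORF had ratios of 0.03 and -1.43. On array 1 its spots were at the background in both dyes (14.5 and 17.5 units in Cy3, against backgrounds of 12 and 12), so the deletion could not be seen there. The swm2 ORF had 0.05 and 1.04.

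The swp1 ORF had an H3K9me2 ratio of -1.03 on array 1 and 0.93 on array 2 (mean -0.05 ± 1.38, SD, n = 2 arrays). Its signals on array 1 were bright, with 17879.5 and 18229 units in the swm1Δ dye and 13860 and 13996 units in the wt dye. With the dyes of array 1 read by its own label, the mean was 0.98 (adjusted p = 0.977). The swp2 ORF had 1.27 and 0.19, and with that reading its mean was -0.54. With 1 array left out the spread came from the H3K4me2 arrays, so calls from the lone array measure no H3K9me2 spread. The swp1 ORF then turned with the array kept, at 0.93 for array 2 and -1.03 for array 1. The 95% intervals of the ORF means of the 4 genes were wide, from -1.96 to 1.86 for swp1 and from -2.53 to 1.12 for swm1.

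In IGR features, for which the deposited H3K9me2 ratios were used, swp2 had 1.13 and 1.08. Of its 4 spots 3 passed a ratio of 2.0, as did 4.77% of all IGR features in at least 3 spots, but limma gave an adjusted p of 0.998. The swp1 IGR feature had 3 of 4 spots at 1/2.0 or less, as did 2.66% of all IGR features, and no member ORF reached 3 such spots, as 3.75% of all ORF features did. On array 2 the spots of the swp2 IGR feature, like those of the swp1 IGR feature, were below 1.5 times the background in Cy5. The median over all IGR features was 0.47 on array 1 and -0.06 on array 2. The swp1 IGR feature had -1.83 on array 1 and 1.69 on array 2, and the array 2 value averages spots at 6.38 and -3.01 whose Cy5 signal was below the background. Likewise, the swm2 IGR feature had spots at 6.68 and -5.97 on array 1, for a mean of 0.35, and a value of -0.89 on array 2. The swm1 IGR feature had 0.81 and 0.16, and its array 2 spots were above 1.5 times the background in both dyes. The loss seen at this feature for H3K4me2 was thus not seen for H3K9me2, so the deletion does not check the H3K9me2 IGR labels.

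Around swp1 the H3K9me2 ratios leaned upwards without a call. The 19 neighbouring ORF features had medians of 1.09 on array 1 and 0.99 on array 2, against 0.12 and -0.01 over all ORF features, and 14 and 17 of them were above 0. With array 1 read by its own label its sign turns. By the methods' rule 3 of the 19 passed a ratio of 2.0 (nur1, gyp3 and mus81), a share to be read against 3.67% of all ORF features, and 0 were called by limma. swp1 itself, with -1.03, was below 0 on array 1.

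The 2 marks were set against each other in a single fit. The H3K4me2 ratio minus the H3K9me2 ratio was -3.20 at the swm1 ORF (interval -4.97 to -1.43, adjusted p = 0.607 from limma). This value does not compare the marks, since swm1 is deleted and its H3K9me2 spots on array 1 were at the background. At the swp1 ORF the difference was 1.58 (interval -0.48 to 3.63, adjusted p = 0.615). At the swm2 ORF it was -0.89 (adjusted p = 0.643) and at the swp2 ORF -0.42 (adjusted p = 0.817). In IGR features it was -2.49 at swm1 (adjusted p = 0.762), and between -0.70 and 1.17 at the other genes. No feature of either region type was called (0% of ORF and 0% of IGR features). The gain of H3K4me2 at swp1 was therefore not shown to differ from its H3K9me2 value.

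On the Hrp arrays no feature of any set was called as labelled (0%), and the members were no exception, with adjusted p from 0.692 to 0.983. The number of features with an unadjusted p under 0.05 was 323 (Hrp1-myc, ORF), 269 (Hrp1-myc, IGR), 234 (Hrp3-myc, ORF) and 102 (Hrp3-myc, IGR). For Hrp1-myc the swp1 ORF had log2 ratios of IP over input of 0.19, 0.37 and 0.85 on arrays 1 to 3. As labelled, all were above 0, with a mean of 0.47 ± 0.34 (SD, n = 3 arrays, adjusted p = 0.692 from limma). The swp2 ORF had 0.29, 0.36 and 0.17, with a mean of 0.27 ± 0.10 (SD, n = 3 arrays; adjusted p = 0.742), and the swm1 ORF had 0.01, 0.56 and 0.06. The swm2 ORF had -0.49 and -0.34 on arrays 1 and 3 but 0.73 on array 2, the array whose dyes are in doubt. With these exchanged, the swm2 ORF had a mean of -0.52 ± 0.19 (SD, n = 3 arrays, adjusted p = 0.451 from limma). In that reading the swp1 ORF had -0.37 on array 2 and a mean of 0.22 ± 0.61 (adjusted p = 0.778). The swp2 ORF then had -0.36 on array 2 and a mean of 0.03 ± 0.35 (adjusted p = 0.959).

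For Hrp3-myc the ORF arrays spread more widely. The swp1 ORF had -1.27, 0.28 and 0.82 as labelled, with a mean of -0.06, and a mean of 0.79 ± 0.50 (SD, n = 3 arrays; adjusted p = 0.287) with the dyes of array 1 exchanged. The swm2 ORF had 0.99, -0.11 and -0.48, with a mean of 0.13 as labelled and of -0.53 with the dyes exchanged (adjusted p = 0.364). The swp2 ORF was the steadiest, with -0.08, 0.22 and 0.12, and the swm1 ORF had -0.91, 0.36 and -0.42. On array 1 a spot of the swm1 ORF was saturated and flagged (65535 units in Cy5), so that its ratio there is not exact, and a spot of the swp1 ORF was dim. In both readings the interval of the swp2 ORF lay within -0.47 to 0.65.

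In IGR features swp1 had the lowest ratios of the 4 genes wherever the dyes were not in doubt. For Hrp1-myc its IGR feature had 0.67 on array 1, -0.51 on array 2 and -0.72 on array 3, and for Hrp3-myc 0.72, -0.27 and -1.01. Arrays 2 and 3 thus put it at percentile ranks of 10.7 and 6.13 for Hrp1-myc and of 22.5 and 1.53 for Hrp3-myc, and array 1 opposed them each time. Without array 1 its mean was -0.61 for Hrp1-myc (adjusted p = 0.0150 from limma), where 9.78% of all IGR features were called lower and 7.72% higher. For Hrp3-myc it was -0.64 (adjusted p = 0.00475 from limma), where 11.2% were called lower. Array 1 was singled out because it ran against the other arrays, so these p-values are not a separate test. With the dyes of array 1 exchanged, the means over 3 arrays were -0.63 ± 0.11 and -0.67 ± 0.37 (SD, n = 3 arrays), with adjusted p of 0.233 and 0.362. In that reading 0.0404% of IGR features were called for Hrp1-myc, all of them higher, and 0% for Hrp3-myc. The labelled dyes gave means of -0.19 and -0.18.

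The IGR feature of swm2 went the other way for Hrp3-myc, with -0.44, 0.41 and 1.49. Without array 1 its mean was 0.95 (adjusted p = 8.7e-06 from limma, with the limit given for swp1). There 15.3% of all IGR features were called higher. With all 3 arrays the mean of the swm2 IGR feature was 0.49 as labelled (adjusted p = 0.908 from limma). With the dyes of array 1 exchanged it was 0.78 (adjusted p = 0.377). For Hrp1-myc it had 0.22, 0.36 and 0.19. The swm1 IGR feature had 0.53, 0.20 and 0.05 for Hrp1-myc and -1.49, 0.09 and 0.66 for Hrp3-myc. The swp2 IGR feature had -0.96, 0.51 and -0.10 for Hrp1-myc and -2.97, 0.28 and -0.13 for Hrp3-myc. The value of -2.97 rests on flagged spots near the background in Cy5 (3110.5 and 3862 units, against backgrounds of 2878.5 and 2796), and without dim spots the mean was 0.075 in place of -0.94. For Hrp3-myc the spots of the swm1 IGR feature on arrays 1 and 2 and those of the swm2 IGR feature on array 2 were also dim, as was 1 spot of the swm2 IGR feature on array 1.

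**Figure D3:**
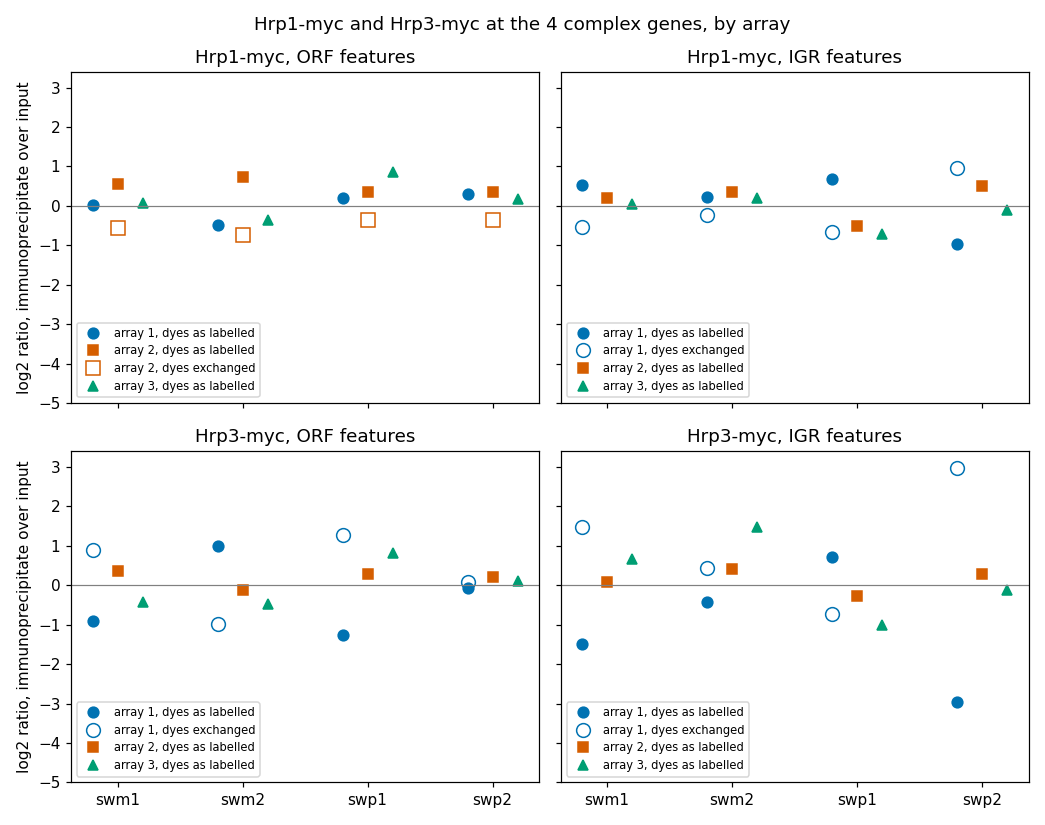
Log2 ratio of IP over input (vertical axes) at the 4 genes for Hrp1-myc (upper panels) and Hrp3-myc (lower panels), in ORF features (left) and IGR features (right). Filled points are arrays with the dyes as labelled and open points the array whose dyes are in doubt, exchanged; in the IGR panels swp1 lies below 0 on arrays 2 and 3.

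Histone H3 in hrp1Δ cells was given by percentile ranks among all features, since the deposited values do not state what they are relative to. Low at both of its features, swm2 had ranks of 9.0, 13.8 and 17.6 in its ORF and of 18.0, 19.5 and 25.9 in its IGR feature on arrays 1, 2 and 20. The swp1 ORF was the highest of the 4, with 87.7, 65.4 and 97.8, whereas its IGR feature had 19.0, 83.7 and 43.8. The swm1 ORF had 30.5, 38.6 and 60.6 and its IGR feature 27.8, 18.1 and 45.9. The swp2 ORF had 77.8, 26.0 and 51.6 and its IGR feature 40.3, 72.8 and 44.8. By the medians the ORFs ran swm2 (13.8), swm1 (38.6), swp2 (51.6) and swp1 (87.7). The ranks of swm2 lay wholly below those of swm1, while swm1 and swp2, and swp2 and swp1, overlapped. In IGR features swm2 and swm1 overlapped, and so did swp1 and swp2. No wt array stands beside these, so a level in hrp1Δ cells cannot be called a change.

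**Figure D4:**
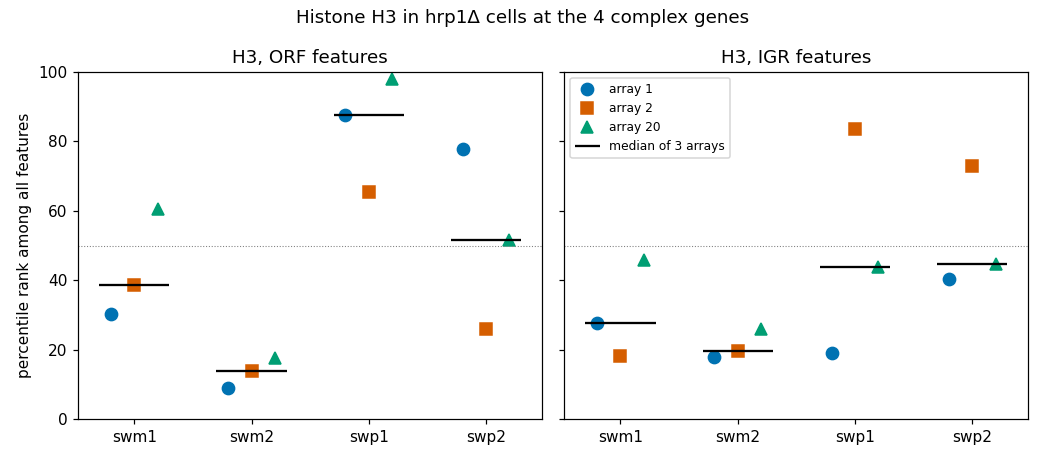
Percentile rank of the deposited H3 value among all features (vertical axes) at the 4 genes in hrp1Δ cells, in ORF features (left) and IGR features (right). Points are arrays, bars are medians of 3 arrays and the dotted line marks the middle rank; the ORF of swm2 lies below 20 on each array and that of swp1 above 60.

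Other genes of histone H3 methylation and deacetylation were counted as a list of 27, with their subunits. In ORF features 7 of 27 were called higher and 3 lower for H3K4me2, against 15.9% and 12.9% of all ORF features, with a median of 0.17 against -0.02 over all ORF features. Among them were pcu4 (1.17 and 0.71), the cullin of the Clr4 complex that methylates H3K9, and spp1 (0.41 and 1.39), a subunit of the Set1 complex that methylates H3K4. The ORF of hrp1 itself had 0.84 and 0.46 (adjusted p = 0.0395). The lower ones were pst2 and alp13, of the Clr6 histone deacetylase complexes, and the JmjC-domain gene jmj3, with means of -0.78, -0.63 and -0.70. In IGR features 1 of 24 was called higher, msc1 (1.14), and 1 lower, jmj1 (-0.95), against 3.86% and 1.41% of all IGR features, and the median of the list was -0.22 against -0.00 over all IGR features. Of the 27 ORF features 0 passed the methods' rule for a higher ratio, which 3.3% of all ORF features passed. For H3K9me2 and on the Hrp arrays 0 of the list were called.

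The features most like each member were sought by the mean absolute difference in percentile rank over 10 ORF arrays, or over the 6 Hrp arrays for swm1, since it is deleted on the methylation arrays. Nearest to swp1 were lys4, tef3 and pgi1, which encode a lysine biosynthesis enzyme, a translation elongation factor and a glycolytic enzyme, with differences of 8.64 to 9.94 rank points. The median over all features was 38.2, and the nearest features lie below the median by the way they were picked, here and below. Nearest to swm2 were SPAPB24D3.03, rsm7 and dus4 (7.38 to 8.57, median 33.5), and to swp2 mst2, a histone acetyltransferase gene, with ubx4 and SPAC8F11.04 (7.57 to 8.95, median 28.3). Nearest to swm1 were raf2, of the Clr4 complex, spf31 and yap18 (9.26 to 9.63, median 31.1). No other member was among these.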

How the data were processed

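Scanner files deposited by the authors hold the median signal intensity and local background of each spot in Cy3 and Cy5, without correction. The methylation tables deposited by the authors hold log2 ratios of single spots, which GeneSpring had normalized by Lowess, and none lies under -6.644. Their Hrp tables, deposited as log10 values, follow a single dye. Their H3 tables hold log2 values whose reference is not stated. Scanner software and genome build are not given in the sources used here.

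Methylation signals were background corrected (normexp, offset 50) and loess normalized within each file with limma 3.58.1 in R 4.3.3. Hrp ratios were centred on the median of each array without correction. For H3K9me2 in IGRs the deposited ratios were used, since scanner signals of array 2 alone were at hand. For H3K4me2 in IGRs array 1 had 1 spot per feature, which gave 3 data points. Of 5917 ORF and 5171 IGR features, control features and those marked missing were left out. Spots of an array were averaged, array means were tested against 0 with lmFit and eBayes (1 residual degree of freedom for 2 arrays, and a prior spread shared by all features), and p-values were adjusted by Benjamini-Hochberg over the region type. With so few arrays their number limits the precision.

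The genes named were the members, called genes of a pathway list, 10 neighbours on each side and the 3 features most alike in rank. Members and lists were chosen with earlier results of these data known, and tif1102, mug57 and the neighbours given with values were picked after their values were seen. For neighbours, 4650 ORF and 4736 IGR features were matched to the RefSeq gene table of ASM294v3. The fits were tested on simulated data. Other background corrections, normalizations, dim spots, flags, deposited values, dye readings, joint fits and leaving out arrays were tried. The 2 expression arrays were not used here, since their table carries no feature names.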

Additional observations from a re-analysis of the deposited data

How the results depend on the processing

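At swm1 and swp1 the H3K4me2 ratios kept their direction under all alternatives run, and their call under each one that kept 2 arrays and a spread of their own (median centring, no background correction, deposited ratios, dim or flagged spots left out). In a single fit with H3K9me2, or with 1 array left out, the spread comes wholly or partly from the H3K9me2 arrays, and 0 features were called. Deposited ratios gave 128 calls for H3K4me2 in IGRs and 3 for H3K9me2 in ORFs. With 1 H3K9me2 array left out, the lone array is assumed to vary like the H3K4me2 arrays. Calls for H3K9me2 then ran from 1339 to 2827 in ORFs and from 1099 to 2324 in IGRs, and calls for the difference between marks from 1237 to 2642 (ORF) and 842 to 1967 (IGR), against 0 with either H3K4me2 array left out. The H3K9me2 ratio then ran from -1.03 to 0.93 (swp1 ORF), -1.43 to 0.026 (swm1 ORF), -1.83 to 1.69 (swp1 IGR) and -0.89 to 0.35 (swm2 IGR), and was 2.62 for the swp1 IGR feature from scanner signals of array 2. The difference ran from -0.97 to 0.12 (swp2 ORF), -0.59 to 2.93 (swp1 IGR) and -0.14 to 1.10 (swm2 IGR). With array 1 read by its own label the H3K9me2 ratio was -0.54 (swp2 ORF) and 0.98 (swp1 ORF), and the difference 0.84 (swp2 ORF).

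Hrp results depended on most settings. Calls with 1 array left out ran from 0 to 401 (Hrp1-myc, ORF), 11 to 866 (Hrp1-myc, IGR), 0 to 953 (Hrp3-myc, ORF) and 0 to 1310 (Hrp3-myc, IGR). For Hrp1-myc in ORFs, 1 feature was called without dim spots and 9 with the dyes of array 2 exchanged. In IGRs exchanged dyes gave 2 calls (Hrp1-myc). The deposited Hrp values were to be tried too, but they are the signal of a single dye and give no ratio of IP over input, so no result was taken from them. Exchanged dyes turned Hrp1-myc to -0.16 (swm1 ORF), -0.10 (swm1 IGR) and 0.46 (swp2 IGR), and Hrp3-myc to -0.53 (swm2 ORF), 0.28 (swm1 ORF), 0.79 (swp1 ORF), 0.75 (swm1 IGR) and 1.04 (swp2 IGR). For Hrp3-myc, normexp gave -0.040 (swp2 ORF), 0.048 (swp1 ORF) and 0.34 (swm1 IGR), loess -0.077, 0.21 and 0.24 for the same features, and leaving out dim spots 0.075 (swp2 IGR). With 1 array left out, means that changed sign ran from -0.42 to 0.19 (Hrp1-myc, swm2 ORF), -0.30 to 0.44 (Hrp3-myc, swm2 ORF), -0.50 to 0.55 (Hrp3-myc, swp1 ORF), -0.53 to 0.20 (Hrp1-myc, swp2 IGR), -0.61 to 0.079 (Hrp1-myc, swp1 IGR), -0.70 to 0.37 (Hrp3-myc, swm1 IGR), -1.55 to 0.075 (Hrp3-myc, swp2 IGR), -0.014 to 0.95 (Hrp3-myc, swm2 IGR) and -0.64 to 0.23 (Hrp3-myc, swp1 IGR). The cause of these changes was not tested. H3 ranks moved by less than their spread over arrays when 1 array was left out.

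Each array already holds swm1Δ and wt, or IP and input, so these comparisons take no further pairing. For the difference between marks, arrays of the 2 marks share only a number. With the replicate block the fit called 0 features in ORFs and 0 in IGRs (340 and 304 with an unadjusted p under 0.05), changed no call of a member, and same-numbered arrays deviated with a Pearson correlation of -0.017 (ORF) and -0.058 (IGR) over features. The replicate block, the dyes exchanged on Hrp arrays, the flags and the scanner signals of array 2 were chosen after seeing the data. With 2 or 3 arrays per set, and H3K9me2 arrays that hardly correlate, changes of H3K9me2 under about the widths of the intervals given could not be detected.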
